A study of Mus musculus with 7 samples.

Results

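Accessible chromatin around 37 genes of T cell receptor signalling was profiled by ATAC-seq in spleen Treg cells, the regulatory T cells of the mouse. In this assay a transposase inserts sequencing adaptors where DNA is open. Of 50213 deposited peaks, 380 belonged to these genes. A peak was taken if it overlapped a member gene, or lay within 100 kb of one that was its nearest protein-coding gene. The genes fell into 3 classes. The receptor chains CD3δ, CD3ε, CD3γ and CD3ζ (Cd3d, Cd3e, Cd3g and Cd247) and the coreceptor Cd4 had 25 peaks at 5 genes. The kinases, adaptors and effectors had 224 peaks at 19 genes, and the negative regulators had 131 peaks at 13 genes. Every gene had at least 1 peak with enough counts to test, and 322 of the 380 peaks were tested. The other 58 were too low in counts.

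Mixed bone marrow chimeras, which had received equal parts of CD45.1+ marrow and a second marrow, supplied the cells. In the 4 WT libraries the second marrow was Foxp3Cre, and in the 3 KO libraries it was Foxp3CreOpa1fl/fl, so that all sorted cells carried Cre under Foxp3 and only those of the KO group carried floxed Opa1. Opa1 is a GTPase of the inner mitochondrial membrane. Each library came from 50000 sorted cells that were positive for CD45.2, CD4 and Foxp3-YFP and negative for CD45.1. Neither the age of the animals nor the exons deleted are given in the labels. The CD45.1+ marrow supplied other blood cells of the same mice, which were not analysed here.

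T cell receptor signalling begins when the kinase Lck, held at the coreceptor, phosphorylates the tails of the CD3 chains, to which the kinase Zap70 then binds. Zap70 phosphorylates the scaffolds Lat and Lcp2 (SLP-76), which gather Plcg1, Vav1 and Sos1, and diacylglycerol made by Plcg1 activates Rasgrp1 and the kinase Prkcq. Phosphatases, the kinase Csk, ubiquitin ligases of the Cbl family and diacylglycerol kinases hold the signal down. Treg cells need this signal for their development and for their suppressive function.

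Promoter windows from 250 bases before to 50 after a start were taken from RefSeq (GRCm38.p6, the assembly that mm10 names) for 31 of the 37 genes, which had 44 windows. Cd4, Cd6, Malt1, Pag1, Skap1 and Sla had no entry. The 7 windows below are printed because the results turn on the peaks over or beside them: a receptor chain, both starts of Lck, and the starts of Bcl10, Cblb, Dgkz and Ptpn22 with high or contrasting base composition. They are read 5′ to 3′ on the strand of the gene. Capitals mark a GC box (GGGCGG or CCGCCC), a RUNX core (TGTGGT or ACCACA) or an ETS core (CCGGAA or TTCCGG), searched on both strands. Each is a match of letters, not a shown binding site, and different motifs did not overlap in the printed windows. In Dgkz 2 of the GC boxes overlap each other, in the longest run of capitals.
Cd3g, chr9:44980382-44980681, minus strand: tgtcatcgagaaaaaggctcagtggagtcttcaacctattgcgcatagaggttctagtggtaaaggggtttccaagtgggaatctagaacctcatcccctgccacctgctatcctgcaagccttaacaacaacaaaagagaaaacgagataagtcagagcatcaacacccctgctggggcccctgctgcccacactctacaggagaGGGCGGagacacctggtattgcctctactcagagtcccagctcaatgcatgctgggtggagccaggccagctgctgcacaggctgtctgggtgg
Lck proximal, chr4:129558323-129558622, minus strand: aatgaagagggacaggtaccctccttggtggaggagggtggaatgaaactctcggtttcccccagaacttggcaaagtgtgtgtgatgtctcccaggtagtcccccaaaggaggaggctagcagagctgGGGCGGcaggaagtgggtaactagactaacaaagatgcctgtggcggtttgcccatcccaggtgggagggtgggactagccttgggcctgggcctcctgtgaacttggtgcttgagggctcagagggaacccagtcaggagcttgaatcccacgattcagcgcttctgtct
Lck distal, chr4:129573592-129573891, minus strand: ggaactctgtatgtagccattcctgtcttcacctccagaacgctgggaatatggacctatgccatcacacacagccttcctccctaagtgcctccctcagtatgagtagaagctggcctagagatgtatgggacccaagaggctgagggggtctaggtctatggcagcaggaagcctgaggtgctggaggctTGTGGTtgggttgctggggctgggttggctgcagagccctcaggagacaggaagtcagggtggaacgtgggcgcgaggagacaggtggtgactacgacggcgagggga
Bcl10, chr3:145924012-145924311, plus strand: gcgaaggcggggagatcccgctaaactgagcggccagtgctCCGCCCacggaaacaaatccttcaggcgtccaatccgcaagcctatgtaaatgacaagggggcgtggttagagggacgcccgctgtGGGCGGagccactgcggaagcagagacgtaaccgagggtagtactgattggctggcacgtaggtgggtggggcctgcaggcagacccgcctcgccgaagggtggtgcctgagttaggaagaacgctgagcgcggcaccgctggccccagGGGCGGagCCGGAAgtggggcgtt
Cblb, chr16:52031299-52031598, plus strand: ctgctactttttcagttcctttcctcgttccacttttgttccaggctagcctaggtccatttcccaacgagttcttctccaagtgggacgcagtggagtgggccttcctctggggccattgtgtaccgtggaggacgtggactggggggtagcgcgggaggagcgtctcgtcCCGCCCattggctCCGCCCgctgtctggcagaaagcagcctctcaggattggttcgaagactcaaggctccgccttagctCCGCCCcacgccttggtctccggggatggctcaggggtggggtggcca
Dgkz, chr2:91963514-91963813, minus strand: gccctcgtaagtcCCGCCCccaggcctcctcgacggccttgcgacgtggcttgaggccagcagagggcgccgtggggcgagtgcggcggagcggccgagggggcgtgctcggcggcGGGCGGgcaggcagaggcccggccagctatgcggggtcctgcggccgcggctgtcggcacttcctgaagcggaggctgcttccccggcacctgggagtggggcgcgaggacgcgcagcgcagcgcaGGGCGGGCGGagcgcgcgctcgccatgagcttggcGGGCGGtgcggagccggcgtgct
Ptpn22, chr3:103860027-103860326, plus strand: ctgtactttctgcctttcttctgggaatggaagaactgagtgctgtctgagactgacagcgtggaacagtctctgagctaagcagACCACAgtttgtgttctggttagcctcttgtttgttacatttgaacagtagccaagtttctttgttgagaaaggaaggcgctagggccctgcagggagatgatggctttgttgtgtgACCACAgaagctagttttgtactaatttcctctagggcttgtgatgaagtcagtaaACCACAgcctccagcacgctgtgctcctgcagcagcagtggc

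The windows differed in base composition. Dgkz held 43 CpG dinucleotides and 5 GC boxes, Bcl10 held 26 and 3, and Cblb held 17 and 3. The proximal Lck start, at the lower coordinates, held 5 CpG and 1 GC box, and the distal Lck start held 7 CpG, no GC box and 1 RUNX core. Cd3g held 4 CpG and 1 GC box, and Ptpn22 held 3 CpG, no GC box and 3 RUNX cores. The 1 ETS core in the printed windows lay in Bcl10. Among all 44 member windows a GC box was found in 20 (45.45%), against 35.66% of 32851 RefSeq windows. A RUNX core was found in 6 (13.64%, all windows 16.76%) and an ETS core in 4 (9.09%, all windows 14.9%). The median CpG count was 8 per member window and 7 over all windows.

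The member genes carried many peaks, mostly inside the gene body. They had a median of 8 peaks, from 1 at Cd3d, Cd3g and Cd4 to 35 at Prkcq, against a median of 2 over the 14280 genes with a peak. Of the member peaks 63.16% lay within a gene away from any start, 28.95% outside genes and 7.89% over a RefSeq start. Over all peaks the shares were 48.94%, 34.58% and 16.48%. The median width was 315 bp, against 319 bp over all peaks. Of the 380 peaks, 17 also touched another protein-coding gene. The 13 peaks of Sla all lay inside Tg (thyroglobulin, chr15:66670754-66850721) as well, so they cannot be given to Sla alone.

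Accessibility over a member's own start could be read at 26 peaks of 24 genes, and its level per kb of peak spanned 12.9-fold. Levels are CPM, that is, counts scaled so that library totals match, divided by peak length. The Cblb start was the highest at 351 CPM per kb over all libraries. It was followed by Bcl10 at 255, Nck1 at 243, Fyn at 237 and Rasa2 at 204 CPM per kb. The ranges of single libraries overlapped among Bcl10, Nck1, Fyn and Rasa2. Themis stood at 144 CPM per kb and Ptpn22 at 126. The lowest were the proximal Lck start at 40.4, Ubash3a at 30.5 and Cd3e at 27.2 CPM per kb. The distal Lck start stood at 64.9 CPM per kb. Across the 26 start peaks, Spearman's rho between the CpG count of the window and the level was 0.473 (Pearson's r = 0.486). Those points share libraries and base composition, and the values are given as a description. Themis and Ptpn22 were the 2 highest starts with few CpG, holding 2 and 3.

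**Figure D1:**
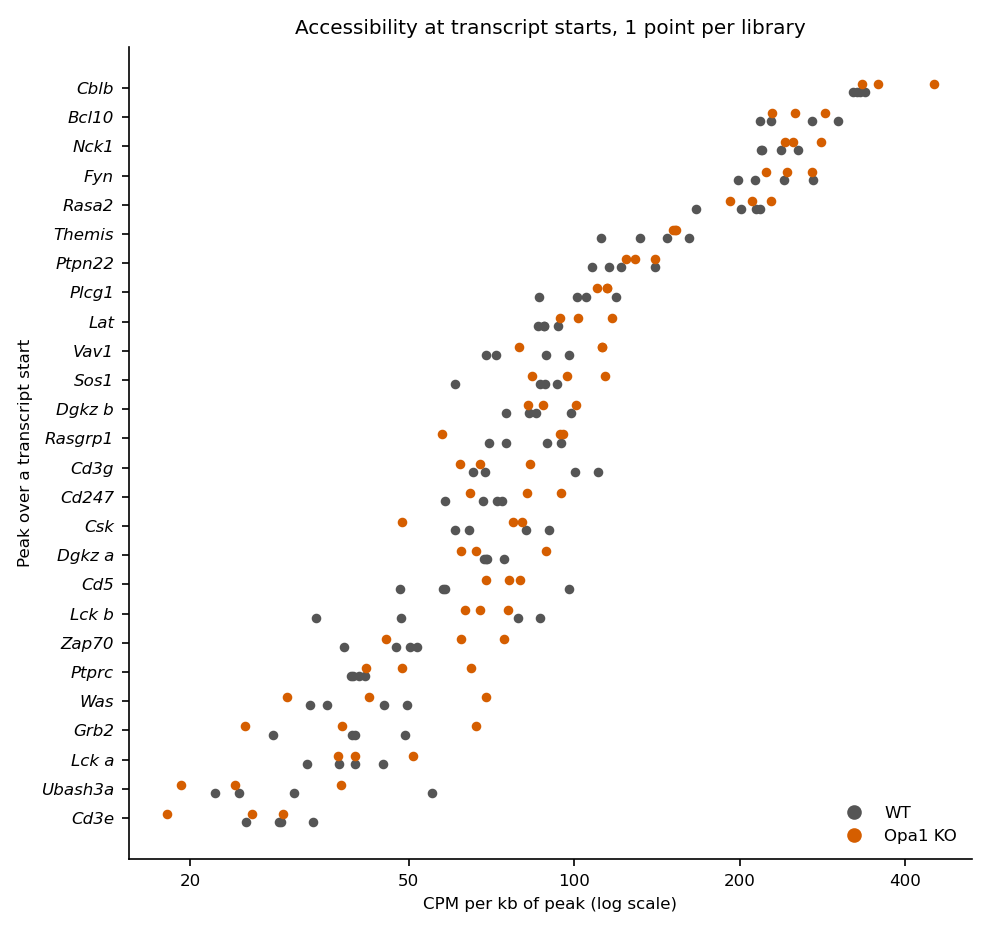
CPM per kb of peak, on a log axis, at the 26 peaks over a transcript start of a member gene, with 1 point per library and the genes in order of their mean level. Lck a and Dgkz a are the starts at the lower coordinates. Levels run from 27.2 CPM per kb at Cd3e to 351 at Cblb, and the WT and KO points overlap at all but Lat and Ptprc.

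The comparison of KO with WT asked whether accessibility at these genes differed when Opa1 was deleted in Treg cells. It found 1 changed peak among the 322 tested, a site in Sla, by edgeR's quasi-likelihood test with Benjamini-Hochberg adjustment over all 38041 tested peaks. That is 0.311% of the members, against 0.0867% of all tested peaks (0.0473% higher and 0.0394% lower). An unadjusted p under 0.05 was reached by 31 member peaks, 15 higher and 16 lower in KO. That is 9.63%, near the background of 9.47% (4.74% higher and 4.73% lower). The 4 WT and 3 KO libraries did not overlap at 29 member peaks, 16 higher and 13 lower. That is 9.01%, against 9.36% of all tested peaks (4.85% higher and 4.51% lower). The member counts at both limits were therefore close to the background.

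The member peaks leaned slightly upward. The log2 fold change was above 0 at 180 and below 0 at 142 of them, 55.9% above against a background of 49.8%. The median was 0.06, against -0.001 over all tested peaks, and it moved to 0.03 with total counts as the only scaling, which put the median of all peaks at -0.03. Without KO replicate 1 the member median was 0.04. The quartiles of the member values were -0.20 and 0.26. The lean went along with abundance. Of the 110 member peaks with a mean of at least 20 CPM, 77 were above 0, or 70.0% against a background of 59.2%, with a median of 0.09 against 0.05 over all such peaks. Member peaks took 0.671%, 0.705%, 0.721% and 0.694% of all counts in WT replicates 1 to 4, and 0.725%, 0.722% and 0.708% in KO replicates 1 to 3. The WT and KO ranges overlapped. The share was 0.693% ± 0.0208 in WT and 0.718% ± 0.00910 in KO (SD, n = 3 each). Without WT replicate 1 the difference between these means, 0.0258 percentage points, was 0.0152. WT replicates 2 and 3 were counted as 1 sample because a chi-square test found no difference beyond sampling noise over most peaks. That test took their counts halved, to stand for read pairs. In bulk libraries, fewer cells with an open site and less opening per cell cannot be told apart.

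**Figure D2:**
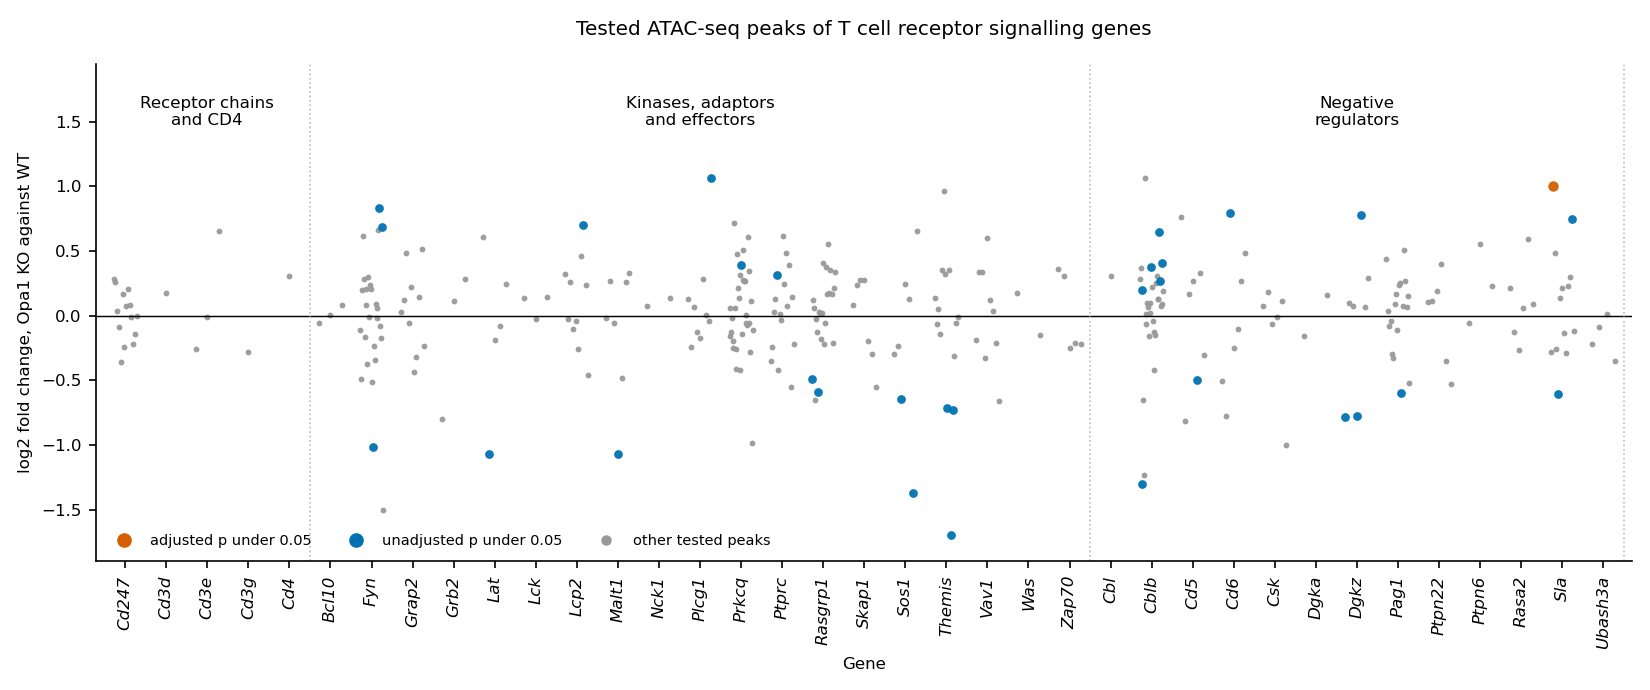
Log2 fold change (KO against WT) of each of the 322 tested member peaks, by gene and class, with 1 point per peak. The 1 orange point, in Sla, passed the adjusted test, and the 30 blue points, on both sides of 0, reached only an unadjusted p under 0.05.

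At transcript starts the member peaks lay slightly above 0 as well. Of the 26, 22 were above 0 on the log2 scale, and their median was 0.13. Over the 7941 tested peaks at any RefSeq start, 58.4% were above 0, with a median of 0.04. The 4 starts below 0 were Cd3g at -0.28, Cd3e at -0.26, Ubash3a at -0.22 and Csk at -0.07. With offsets fitted to abundance by loess, 20 of 26 were above 0 and the median was 0.09, against 0.008 over all starts. Without KO replicate 3, 18 of 26 were above 0. No start peak passed the adjusted test in edgeR, DESeq2 or limma-voom. The Cblb start reached an unadjusted p under 0.05 in edgeR, 1 of 26 against a background of 9.08%, and 1 start did so in DESeq2 and 0 in limma-voom. The libraries of the 2 genotypes did not overlap at Lat and Ptprc, 7.69% of the start peaks against a background of 8.97%. At Lat, the scaffold on which the signalling complex forms, the start had 36.3, 37.2, 37.3 and 39.5 CPM in WT and 49.6, 43.0 and 39.9 in KO. At Ptprc, which encodes the phosphatase CD45, it had 13.1, 13.5, 13.9 and 13.2 CPM in WT and 21.6, 13.9 and 16.2 in KO. In both genes the highest WT library and the lowest KO library were less than 1 CPM apart.

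Among the receptor chains and Cd4 no difference passed the test. Of 20 tested peaks, 0 passed the adjusted test and 0 reached an unadjusted p of 0.05 in edgeR, DESeq2 or limma-voom, and 10 lay above and 10 below 0. Cd247, the chain with most of the phosphorylation motifs, held 14 of the 20. Its highest peak (chr1:165844508-165845681, within the gene) had 77.5, 103, 92.7 and 91.2 CPM in WT and 93.7, 101 and 74.4 in KO. The groups covered nearly the same range, with a log2 fold change of -0.01 (SE 0.12). A weaker Cd247 peak (chr1:165803201-165803580) was the 1 receptor peak of 20 where the groups did not overlap (5%, background 9.36%). It had 26.2, 27.8, 30.1 and 26.9 CPM in WT and 20.6, 25.9 and 18.9 in KO (-0.36 on the log2 scale, SE 0.23). It falls outside the rule for named peaks and was chosen after its values were seen.

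The other receptor genes had few peaks. The Cd3g start had 23.3, 33.9, 37.3 and 22.1 CPM in WT and 21.0, 22.8 and 28.1 in KO, with overlapping groups (log2 fold change -0.28, SE 0.23). The Cd3e start had 15.5, 13.5, 15.7 and 17.9 CPM in WT and 13.9, 15.8 and 9.71 in KO, again with overlap (-0.26, SE 0.30). The 1 Cd3d peak, within the gene, had 36.8, 50.1, 46.4 and 46.4 CPM in WT and 45.0, 60.0 and 48.5 in KO. It lay at 0.18 (SE 0.17) on the log2 scale. Cd4, whose product binds MHC class II and carries Lck, had 1 peak within the gene. It held 19.4, 31.1, 27.7 and 32.7 CPM in WT and 33.9, 29.1 and 38.8 in KO (0.31 on the log2 scale, SE 0.21), with overlapping groups.

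Among the kinases, adaptors and effectors, 0 of 192 tested peaks passed in edgeR, DESeq2 or limma-voom. An unadjusted p under 0.05 was reached by 16 in edgeR (6 higher, 10 lower, 8.33% against 9.47% of all tested peaks), 14 in DESeq2 and 22 in limma-voom. The peak with the smallest p lay in Lcp2 (chr11:34064050-34064422, 17122 bp from its start), the adaptor that holds Plcg1 and Vav1. It had 24.7, 23.02, 25.3 and 22.1 CPM in WT and 43.8, 34.8 and 36.7 in KO. All KO libraries were above all WT libraries. Their log2 fold change reached 0.71 (SE 0.20, adjusted p = 0.197). It was also the highest of the 10 tested Lcp2 peaks, which split evenly, with 5 above and 5 below 0.

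Sos1 and Rasgrp1 encode guanine nucleotide exchange factors that activate Ras. Of 7 tested Sos1 peaks 3 were above 0, and of 23 tested Rasgrp1 peaks 14 were. In Sos1 a peak within the gene (chr17:80468352-80468899) had 36.3, 33.9, 36.1 and 29.5 CPM in WT and 21.6, 26.5 and 17.3 in KO. No KO value reached the WT range (log2 fold change -0.65, SE 0.22, adjusted p = 0.288). Rasgrp1, which diacylglycerol recruits, had a peak (chr2:117303898-117304634) with 46.5, 46.0, 36.1 and 48.5 CPM in WT and 37.0, 29.1 and 27.0 in KO. WT replicate 3 fell below KO replicate 1 there, and KO against WT came to -0.49 on the log2 scale (SE 0.19, adjusted p = 0.364). Summed over each gene, the counts gave 0.003 for Sos1 and 0.02 for Rasgrp1 on the log2 scale, each within its SE of 0.

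Themis, which encodes a protein of T cell development that binds Grb2, had the lowest log2 fold change of any member peak. Its peak at chr10:28694967-28695421, 26572 bp from the start, had 25.7, 23.02, 35.5 and 29.5 CPM in WT and 16.3, 17.7 and 18.3 in KO. The groups did not overlap (log2 fold change -0.71, SE 0.24, adjusted p = 0.288). Further Themis peaks with an unadjusted p under 0.05, chosen after their values were seen, lay 67620 bp from the start at -1.70 (SE 0.66) and 108380 bp from it at -0.73 (SE 0.31). The first of these held at most 7.75 CPM in any library. The Themis start stood at 73.6, 82.6, 62.6 and 90.6 CPM in WT and 84.7, 85.3 and 85.8 in KO, within the WT range. Of the 14 tested Themis peaks 8 were below 0.

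Malt1, the protease of the complex that leads to NF-κB, had a weak peak (chr18:65465618-65466031) with 7.75, 13.5, 7.23 and 19.0 CPM in WT and 7.39, 5.06 and 3.78 in KO. The WT libraries themselves spread widely there and the groups overlapped (log2 fold change -1.07, SE 0.40, adjusted p = 0.365). Its highest peak had 130, 121, 152 and 150 CPM in WT and 130, 131 and 139 in KO (-0.05 on the log2 scale, SE 0.10). Bcl10, the adaptor of the same complex, lay at 0.01 (SE 0.10) over its start, with 174, 231, 207 and 167 CPM in WT and 175, 193 and 218 in KO. Both high peaks had an SE near 0.10, and neither differed beyond it.

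Fyn, a kinase of the Src family like Lck, had 26 tested peaks, 13 above and 13 below 0. Peaks with an unadjusted p under 0.05, chosen after their values were seen, lay 152232 and 119326 bp from its start at 0.69 (SE 0.28) and 0.83 (SE 0.37). Another lay 60620 bp from it at -1.01 (SE 0.41). The Fyn start had 104, 85.3, 117 and 91.7 CPM in WT and 105, 116 and 96.0 in KO, and the groups overlapped. At the proximal Lck start, whose window is printed above, WT had 30.5, 27.1, 25.3 and 22.1 CPM and KO had 27.1, 25.3 and 34.5. Its log2 fold change was 0.14 (SE 0.22). The highest Zap70 peak, within the gene, had 28.1, 23.02, 45.8 and 26.4 CPM in WT and 31.1, 25.3 and 19.96 in KO, at -0.25 (SE 0.22). The highest Ptprc peak, within the gene, had 59.6, 62.3, 49.4 and 68.0 CPM in WT and 70.9, 65.1 and 87.4 in KO, at 0.31 (SE 0.14, adjusted p = 0.472). WT replicate 4 lay above KO replicate 2 there, and the groups overlapped at Lck and Zap70 too.

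For the remaining members of this class, the highest peaks were those of Vav1 at 0.34 (SE 0.20), Rasgrp1 at 0.34 (SE 0.17), Grb2 at 0.29 (SE 0.21), Prkcq at 0.27 (SE 0.14), Lat at 0.25 (SE 0.17) and Skap1 at 0.24 (SE 0.19) on the log2 scale. The others were Nck1 at 0.14 (SE 0.10), Sos1 at 0.13 (SE 0.13), Grap2 at 0.03 (SE 0.19), Plcg1 at -0.04 (SE 0.14) and Was at -0.15 (SE 0.21). None of these 11 reached an unadjusted p of 0.05. Of the highest peak of each of the 37 members, 27 were above and 10 below 0. The share above 0 was 49.8% over all tested peaks and 59.2% over those with a mean of at least 20 CPM. The highest peaks of Lcp2, Cblb and Ptprc reached an unadjusted p under 0.05, 3 of 37 against a background of 9.47%.

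**Figure D3:**
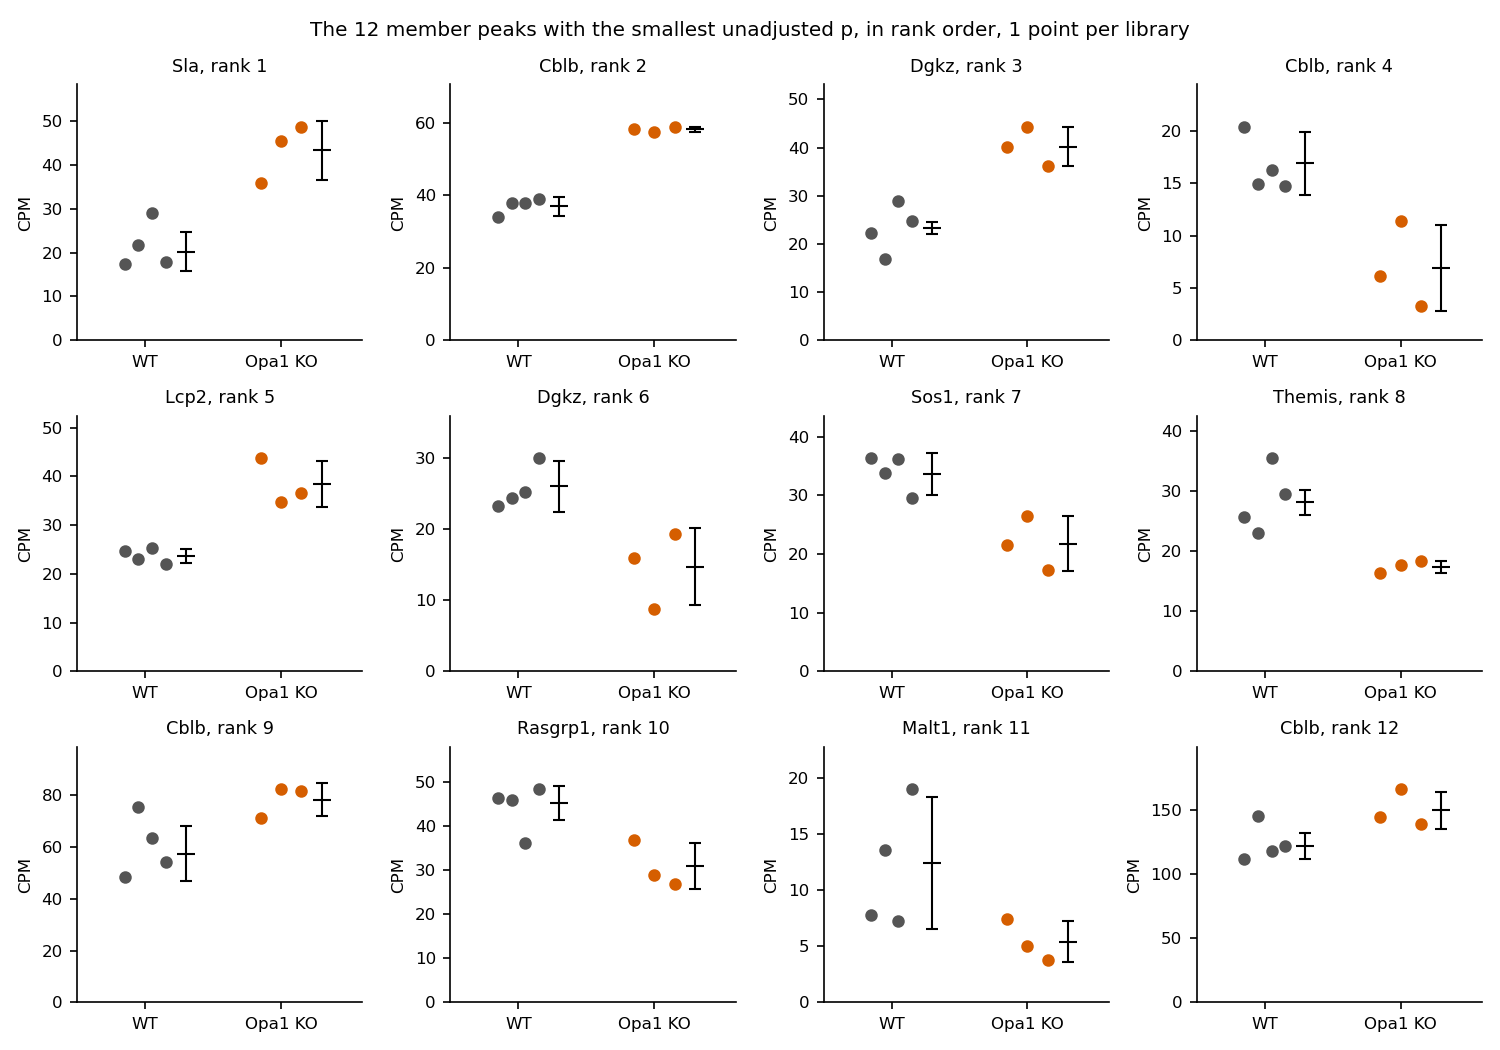
CPM in each library at the 12 member peaks with the smallest unadjusted p, 1 panel per peak in rank order, with bars for the mean ± SD (n = 3 each, WT replicates 2 and 3 averaged). At the first 8 peaks the WT and KO libraries do not overlap, 4 of them being higher and 4 lower in KO. The peaks were picked by p in this same comparison, so their separation is no further evidence of a difference. Over all tested peaks 9.36% were apart.

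Among the negative regulators 1 of 110 tested peaks passed, in Sla, which encodes SLAP, an adaptor that promotes the downregulation of the receptor. The peak (chr15:66789019-66789443, within Sla and Tg) had 17.4, 21.7, 28.9 and 17.9 CPM in WT and 35.7, 45.5 and 48.5 in KO. Every KO library was above every WT library. The mean was 20.2 ± 4.40 CPM in WT and 43.3 ± 6.69 in KO (SD, n = 3 each, WT replicates 2 and 3 averaged). In the edgeR fit, which kept these replicates separate, the log2 fold change was 1.00 (SE 0.21, adjusted p = 0.0166). The call was lost without WT replicate 1 (adjusted p = 0.177), WT replicate 4 (0.1), KO replicate 2 (0.0647) or KO replicate 3 (0.197), with the log2 fold change between 0.91 and 0.97. None of the other 12 Sla peaks passed. At 2 of them the unadjusted p was under 0.05, one at 0.75 (SE 0.35) and one at -0.60 (SE 0.29). The highest Sla peak had 45.5, 37.9, 42.2 and 30.6 CPM in WT and 33.9, 37.9 and 36.7 in KO (-0.12 on the log2 scale, SE 0.19).

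Cblb, a ubiquitin ligase that restrains T cell activation, had the highest start level per kb of all members and the most peaks with a small p. Of its 30 tested peaks 21 were above 0, and 5 higher and 1 lower reached an unadjusted p under 0.05, with 0 passing the adjusted test. The peak with the second smallest p of all members (chr16:52142846-52143488, 111297 bp from the start) had 33.9, 37.9, 37.9 and 39.0 CPM in WT and 58.2, 57.5 and 58.8 in KO. The KO libraries stood close together and far above WT. KO exceeded WT by 0.65 on the log2 scale (SE 0.16, adjusted p = 0.0840 in edgeR and 0.0498 in DESeq2). A peak about as far from the start (chr16:52147219-52147779) had 111, 146, 118 and 122 CPM in WT and 144, 166 and 139 in KO, at 0.27 (SE 0.10, adjusted p = 0.368). WT replicate 2 lay above 2 of the 3 KO libraries there.

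A Cblb peak 6601 bp from the start lay on the other side of 0. It spanned chr16:52038150-52038643 and had 20.4, 14.9, 16.3 and 14.8 CPM in WT and 6.16, 11.4 and 3.24 in KO. All KO values were below WT (log2 fold change -1.30, SE 0.35, adjusted p = 0.142). With counts halved to stand for read pairs the adjusted p was 0.0393. The Cblb start, printed above, had 231, 234, 237 and 242 CPM in WT and 239, 323 and 256 in KO. Only KO replicate 1 lay within the WT range (0.20, SE 0.09, adjusted p = 0.450). A peak 50267 bp from the start had 48.4, 75.1, 63.2 and 54.3 CPM in WT and 70.9, 82.2 and 81.4 in KO. The groups overlapped through WT replicate 2 (0.38, SE 0.14, adjusted p = 0.358).

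Cblb lies on chromosome 16, as does Opa1, with 22.4 Mb between them. Beyond 40 Mb of that chromosome 1.43% of 908 tested peaks passed the adjusted test and 14.9% reached an unadjusted p under 0.05. From 0 to 40 Mb, where Opa1 lies, 0 of 675 peaks passed in edgeR and 6.37% reached an unadjusted p under 0.05. On the other chromosomes the shares were 0.0549% and 9.39% of 36458 peaks. At Cblb 6 of the 30 tested peaks reached an unadjusted p under 0.05. The effect of the genotype and that of DNA inherited along with the floxed allele cannot be told apart there. Without Cblb, 25 of 292 member peaks reached an unadjusted p under 0.05 (8.56%), and the member median was 0.04 on the log2 scale.

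Dgkz, a kinase that removes diacylglycerol, had peaks with opposite differences close to one start. A peak 1448 bp from it (chr2:91961757-91962115) had 22.3, 16.9, 28.9 and 24.8 CPM in WT and 40.05, 44.2 and 36.1 in KO. The groups did not overlap (log2 fold change 0.78, SE 0.21, adjusted p = 0.122). The next peak, 6088 bp from that start (chr2:91957131-91957475), had 23.3, 24.4, 25.3 and 30.0 CPM in WT and 16.02, 8.85 and 19.4 in KO. Here too the groups did not overlap, with KO lower (-0.77, SE 0.26, adjusted p = 0.287). The start itself, the most CpG-rich window printed above, had 42.6, 35.9, 32.5 and 36.9 CPM in WT and 35.7, 37.9 and 43.7 in KO, with full overlap (0.07, SE 0.18). Another peak with an unadjusted p under 0.05, chosen after its values were seen, lay at -0.79 (SE 0.34) near the second start. Summed over the gene these gave a log2 fold change of 0.06 (SE 0.10).

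**Figure D4:**
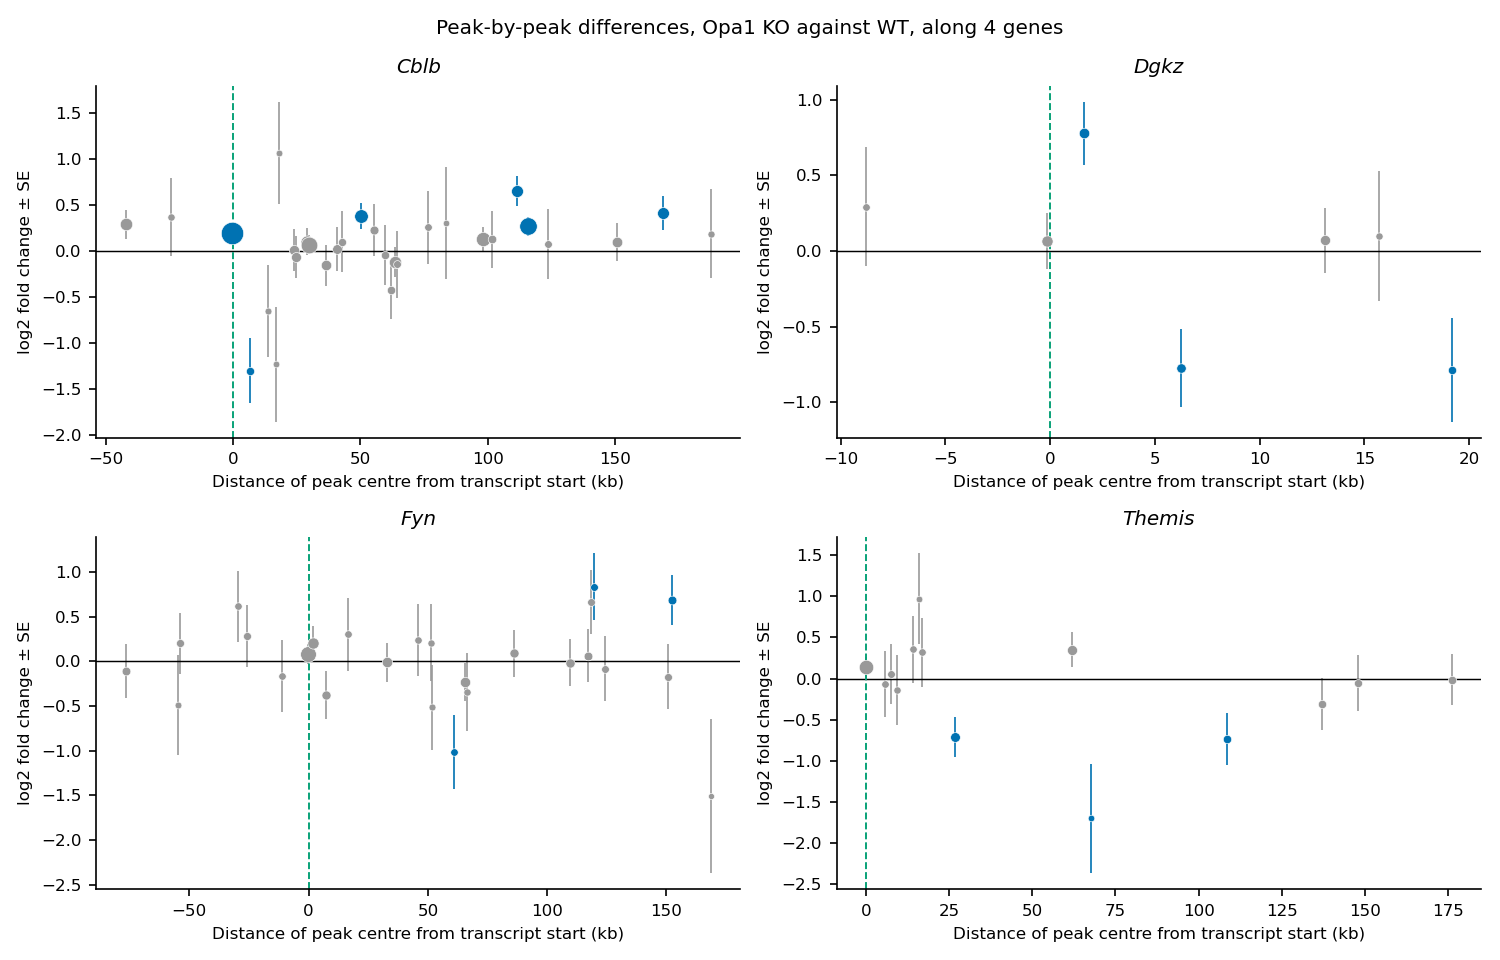
Log2 fold change ± SE (KO against WT) of each tested peak of Cblb, Dgkz, Fyn and Themis, against the distance in kb of the peak's centre from a transcript start (dashed line), in the direction of transcription. The area of a point grows with the mean CPM, blue marks an unadjusted p under 0.05, and in Cblb, Dgkz and Fyn blue points lie on both sides of 0.

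At the highest peaks of the other negative regulators no difference passed the test. Cd5, a surface receptor that dampens signalling, had its highest peak 24403 bp from its start, outside the gene. That peak had 49.4, 58.2, 52.4 and 48.5 CPM in WT and 41.6, 41.7 and 43.2 in KO. All KO values lay below all WT values (log2 fold change -0.30, SE 0.16, adjusted p = 0.570). The related receptor Cd6 had 19.9, 17.6, 26.5 and 28.5 CPM in WT and 18.8, 17.7 and 11.9 in KO, at -0.50 (SE 0.26). For Ptpn22, a phosphatase of Lck and Zap70, the start had 57.2, 65.7, 50.6 and 54.3 CPM in WT and 60.4, 65.7 and 58.3 in KO, at 0.11 (SE 0.15). Csk, the kinase that inactivates Lck, lay at 0.18 (SE 0.17) and Pag1, its membrane anchor, at 0.09 (SE 0.16). Cbl lay at 0.31 (SE 0.42), Ptpn6 at 0.23 (SE 0.26), Dgka at 0.16 (SE 0.17), Rasa2 at 0.06 (SE 0.13) and Ubash3a at 0.01 (SE 0.19). The libraries overlapped in all of these but Cd5.

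As a class, 67 of the 110 peaks of negative regulators lay above 0 (60.9%, all tested peaks 49.8%, median 0.08 on the log2 scale) and 15 (13.6%, all tested peaks 9.47%) reached an unadjusted p under 0.05. They took 0.268%, 0.281%, 0.296% and 0.280% of all counts in WT and 0.288%, 0.305% and 0.295% in KO. WT replicate 3 lay within the KO range. Cblb alone held 30 of the 110 peaks, 21 of the 67 above 0 and 6 of the 15 under 0.05. The 131 peaks of the class, tested or not, had a median of 12.9 CPM, against 9.49 over all 50213 peaks. Of all tested peaks with a mean of at least 20 CPM, 59.2% were above 0. Of the kinases and adaptors 103 of 192 were above 0, with a median of 0.03, and of the receptor peaks 10 of 20, with a median of 0.02. Whether the classes differ was not tested.

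Summed over all peaks of a gene, 0 of the 37 members passed in edgeR, DESeq2 or limma-voom, against a background of 0.346% of 13290 genes. An unadjusted p under 0.05 was reached by 1 member in edgeR and DESeq2 and by 2 in limma-voom, where the edgeR background was 11.4%. Sums are given in CPM of all counts assigned to genes. For Cblb they were 1017, 1065, 1110 and 1024 CPM in WT and 1084, 1300.5 and 1131 in KO. KO replicate 1 lay within the WT range and KO replicates 2 and 3 above it. On the log2 scale KO against WT was 0.15 (SE 0.05, adjusted p = 0.219). Ptpn6, which encodes the phosphatase SHP-1, was the 1 member whose sums did not overlap (background 9.62%). It had 32.0, 34.3, 27.0 and 37.5 CPM in WT and 39.8, 42.2 and 39.7 in KO, which is 0.30 on the log2 scale (SE 0.18, adjusted p = 0.558).

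The other sums with the smallest p were those of Cbl at 0.45 (SE 0.29), Prkcq at 0.09 (SE 0.06), Sla at 0.12 (SE 0.08) and Cd4 at 0.30 (SE 0.21), with adjusted p values from 0.584 to 0.628. Over the members the sums ran from -0.29 at Cd3g to 0.45 at Cbl. They lay within 0.1 of 0 for 26 genes and within 0.2 for 33. Above 0 were 27 (background 49.9%), with a median of 0.05 against -0.0005 over all genes. That background was not matched for abundance or number of peaks. Member genes had a median of 8 peaks, against 2 over all genes with a peak. Among single peaks 59.2% of those with a mean of at least 20 CPM were above 0, against 49.8% of all tested peaks. Log2 fold changes of single peaks ran from -1.70 to 1.07. The sums pool many peaks and are fewer in number, so the 2 ranges cannot be compared.

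**Figure D5:**
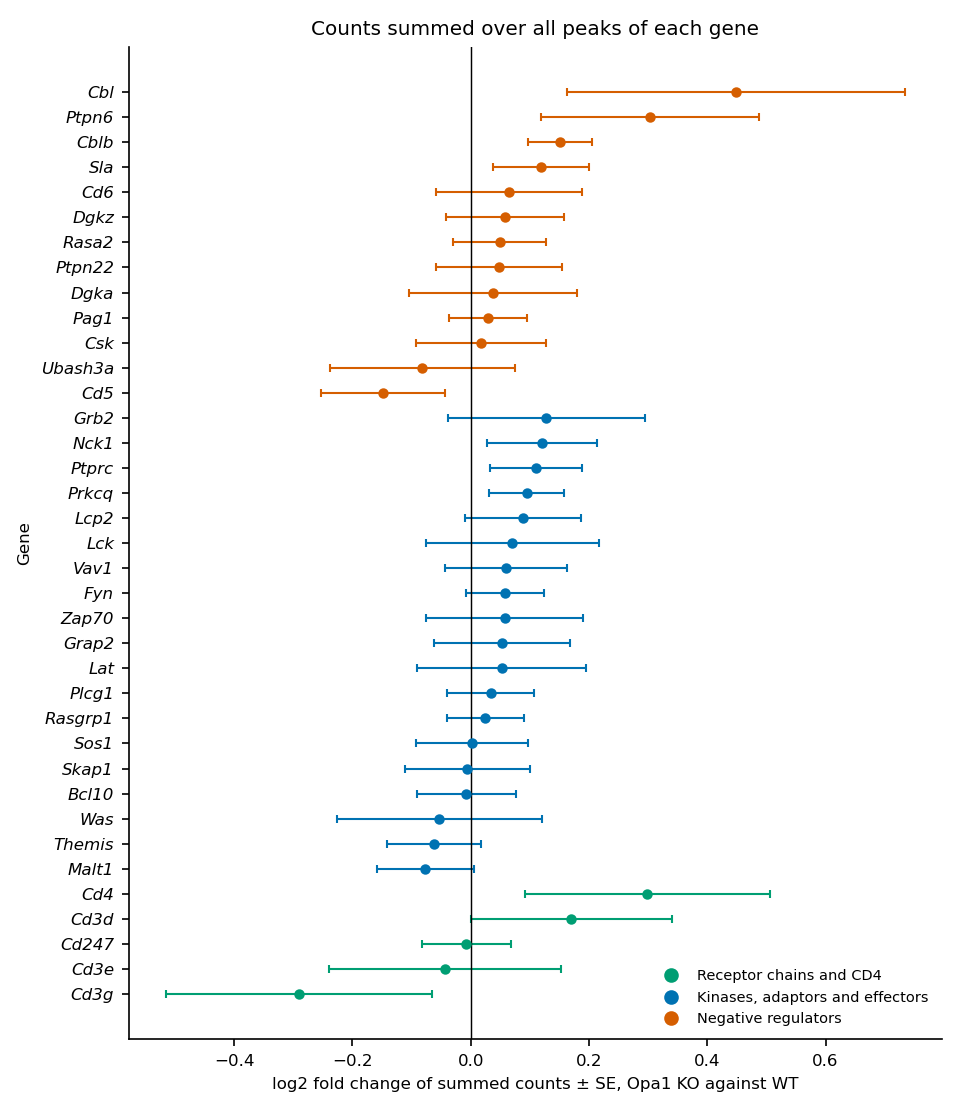
Log2 fold change ± SE (KO against WT) of the counts summed over all peaks of each of the 37 genes, by class. No gene passed an adjusted p of 0.05, and the values run from -0.29 at Cd3g to 0.45 at Cbl.

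Genes further along the pathway gave no call either. Across 5 lists of 84 genes, 0 of 603 tested peaks passed in edgeR, DESeq2 or limma-voom. An unadjusted p under 0.05 was reached by 68 (11.3%, background 9.47%) in edgeR, 34 higher and 34 lower, by 60 in DESeq2 and by 71 in limma-voom. For calcium and NFAT signalling 21 of 166 peaks (12.7%) reached it (9 higher, 12 lower). The smallest p was at a peak in Nfatc2, an NFAT transcription factor, with 51.4, 43.3, 71.1 and 44.3 CPM in WT and 39.1, 39.2 and 28.1 in KO. The groups did not overlap (log2 fold change -0.56, SE 0.18, adjusted p = 0.268).

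For Ras and MAP kinase signalling 6 of 58 peaks (10.3%, background 9.47%) reached an unadjusted p under 0.05 (4 higher, 2 lower). The smallest p was at Jun, a subunit of the transcription factor AP-1, with 29.6, 47.4, 39.1 and 29.0 CPM in WT and 58.2, 45.5 and 58.8 in KO. WT replicate 2 lay above KO replicate 2 (0.61, SE 0.18, adjusted p = 0.197). For NF-κB 5 of 72 (6.94%) reached it, led by a peak near Ikbkb, a kinase of the inhibitor of NF-κB, at 0.43 (SE 0.16, adjusted p = 0.349). For PI3 kinase, costimulation and actin 25 of 185 (13.5%) reached it. The smallest p was at a peak in Wipf1, a partner of the protein that Was encodes, at -1.13 (SE 0.35, adjusted p = 0.256). For further negative regulators 11 of 122 (9.02%) reached it, led by the start of Dusp2, a MAP kinase phosphatase, at 0.40 (SE 0.15, adjusted p = 0.365). Whether any list differs from the background was not tested. WT and KO libraries were apart at the Ikbkb, Wipf1 and Dusp2 peaks, as at the Nfatc2 peak. The named peak of each list was picked by p in this same comparison, so such separation is no further evidence of a difference. Over all tested peaks 9.36% were apart.

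Total counts in peaks ran from 1534394 to 2134586 in WT and from 1658436 to 3384325 in KO. The peak over the transcript start of Opa1 (chr16:29579139-29579524) had 33.8 to 37.9 CPM in WT and 29.1 to 42.6 in KO, and does not check the deletion. All 6 Treg marker genes had peaks, which summed to 1615 to 1746 CPM in WT and 1669 to 1782 in KO. Of the myeloid markers Cd68, Csf1r and Lyz2 had no peak, and of the natural killer markers Ncr1 had none. Peaks of the other 4 of 5 natural killer markers summed to 208 to 241 CPM in WT and 243 to 247 in KO. These sums did not overlap, and over all tested peaks the groups were apart at 9.36%. Peaks of 4 of 4 erythroid markers summed to 60.2 to 104 CPM in WT and 92.8 to 111 in KO. Sums for 3 of 6 myeloid and 2 of 2 CD8 T cell markers overlapped between the groups. No peak of these markers passed the adjusted test in edgeR. An unadjusted p under 0.05 was reached by 5 of 63 tested Treg, 1 of 13 natural killer and 1 of 8 erythroid marker peaks (background 9.47%). Of the myeloid and CD8 T cell marker peaks, 0 of 5 each did so. The part of such cells in the member differences was not tested.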

How the data were processed

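The authors deposited whole-number counts per peak for 7 libraries, not normalized. Per the submitters' processing notes, reads were handled with bedtools 2.25.0, MACS2 2.1.1, SAMtools 1.9, Picard 2.9.4, BWA 0.7.16 and Trimmomatic 0.36 on mm10. Settings, the merging of peaks and any shift for the transposase were not given in the sources used. Between 78% and 86.3% of the counts per library were even, as when both mates of a pair are counted, so counts overstate fragments. Without molecular identifiers, PCR copies are not separate molecules. Whether starts count from 0 or 1 is not stated, and positions are as deposited.

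A RefSeq table of protein-coding genes gave 47469 peaks a gene. Starts and strands came from RefSeq promoter windows. Peaks, and counts summed per gene, were tested with edgeR 4.0.16 (robust quasi-likelihood, genotype as the only term) in R 4.3.3. filterByExpr (minimum count 10) kept 38041 peaks and 13290 genes. TMM factors and Benjamini-Hochberg adjustment at 0.05 over all tested features were used, and printed adjusted p values come from it where no other tool is given. Log2 fold changes are those of edgeR. Alternatives used DESeq2 1.42.0, limma-voom 3.58.1, other scalings and filters, counts halved, a replicate block and each library left out. The procedure was tested on simulated counts. Other steps used Python 3.11.15, pandas 2.3.3, NumPy 2.4.6, SciPy 1.17.1 and matplotlib 3.10.9.

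Halved to stand for read pairs, counts of WT replicates 2 and 3 agreed within sampling noise at 36418 peaks (chi-square p = 0.111). Over the 11332 most abundant, however, the chi-square p was 0.0385. The chi-square test was not run on the counts as deposited. These replicates counted as 1 sample in means and SDs and stayed separate in the tests. The labels do not tie each library to its own mouse, so p-values measure the spread between libraries. The members and the lists were chosen with earlier results of these data known. Named peaks are each gene's tested peak with the highest mean count, every member peak that passed, the 12 lowest in p, the 6 gene sums lowest in p, and per pathway list the 1 peak lowest in p. Sequences of the peaks themselves were not used here. The markers of 1 further cell type are not reported here.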

Additional observations from a re-analysis of the deposited data

How the results depend on the processing

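None of the 12 peaks with the smallest p changed sign in any alternative. Of the other 36 named peaks 8 did in at least 1, all with log2 fold changes between -0.15 and 0.07. The 12 were picked by p in the edgeR fit, and the alternatives reuse the same libraries. Their kept sign was thus largely fixed by that choice. The 1 member peak that passed became 2 with DESeq2 and 2 with counts halved, each time with a Cblb peak added, and 0 with the replicate block, which also leaves out WT replicate 4 because no KO library shares its number, and under which the Sla peak stood at 0.93 on the log2 scale (SE 0.22, adjusted p = 0.0813). Leaving out each library gave 0 to 1. No gene passed on summed counts under any of the 19 alternatives run. The count of 29 member peaks with groups apart was 57 with WT replicates 2 and 3 summed, and 37 to 63 with each library left out. All of these settings leave fewer libraries to overlap. Shares over all peaks are not given for them, so the rise is not a result about the members. DESeq2 and limma-voom give no such count. The member median of 0.061 on the log2 scale became 0.033 when only total counts were scaled to, and 0.036 to 0.074 with each library left out.

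Of the 12 peaks with the smallest p, 9 kept their side of the threshold in every alternative that tested them. The exceptions were the Sla peak and 2 Cblb peaks. An adjusted p that DESeq2 left missing was counted as kept. Of the other 36 named peaks 30 moved by less than 1 SE in every alternative. Over all peaks, 33 passed, against 15 without KO replicate 1, 16 without KO replicate 3, 18 without WT replicate 1, 25 without WT replicate 4 and 17 with the replicate block, which lacks that library too, 55 with DESeq2, 55 with limma-voom, 60 with a mean count of at least 20 and 77 with counts halved. Over all gene sums 46 passed, from 8 without KO replicate 3 to 75 with counts halved, with 18 in DESeq2 and 28 with the block. With total counts as the only scaling the peaks split into 14 higher and 23 lower, with loess offsets into 12 and 23, against 18 and 15. Deviations of same-numbered WT and KO libraries correlated at 0.011, -0.012 and 0.004, and those of differently numbered ones at -0.038 to 0.029. Libraries of the same genotype differed by little more than sampling noise, so these correlations cannot show whether the replicate numbers pair the libraries. The block is given as an alternative only. The median count per peak ran from 14 to 30 per library, and the error was wider at weak peaks: the SE of the log2 fold change was 0.66 at the Themis peak 67620 bp from the start and 0.09 at the Cblb start.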
